A study of Rattus norvegicus with 4 samples.

Results

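The genes for the collagen IV chains and the main laminin chains of the glomerular basement membrane were examined in glomeruli of rats given Adriamycin (ADR, doxorubicin), an anthracycline that injures podocytes and is used to produce nephrotic syndrome in rodents. They were chosen by symbol and comprise Col4a1 to Col4a6, Lama5, Lamb1, Lamb2 and Lamc1, that is 10 of the 13261 genes used, and all 10 were found. Of these, 5 are chains of the mature membrane that podocytes make (Col4a3, Col4a4, Col4a5, Lama5 and Lamb2), 3 are chains of endothelium and mesangium (Col4a1, Col4a2 and Lamb1), and Col4a6 and Lamc1 are in neither set. The 4 libraries form 1 group: male Wistar rats of 150 to 175 g, intravenous ADR, glomeruli obtained by sieving. The labels name day 11 or day 21 for harvest without saying which applies, and do not say whether glomeruli of several rats were pooled or whether each library is a separate rat. P-values below therefore measure only the spread between these 4 samples, which may be technical. Puromycin aminonucleoside and agonist-treated rats named in the protocol were not analysed here, nor were untreated rats, so no value below is a response to ADR.

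Collagen IV is secreted as trimers of α chains that join end to end into a network, and laminins are crosses of an α, a β and a γ chain that join into a second network beneath cells. In the mature glomerular basement membrane, podocytes deposit the α3α4α5 trimer of collagen IV, whose chains are mutated or attacked in Alport syndrome and Goodpasture disease. The trimer of α1 and α2 chains comes from endothelial and mesangial cells and dominates the immature membrane and the mesangial matrix. Laminin of α5, β2 and γ1 chains, made by podocytes and endothelial cells, takes the place of β1-containing laminin as the membrane matures, and loss of β2 causes congenital nephrotic syndrome.

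Collagen IV genes lie head to head in pairs, so that neighbouring genes are read away from a common stretch of DNA. The sequences of the Col4a1 and Col4a2 pair and the Col4a3 and Col4a4 pair are shown because the read ratio within these pairs is examined further on. They are the RefSeq windows of the GRCr8 build, from 250 bases before to 50 bases after each start, printed 5′ to 3′ on the gene's own strand. Capitals mark the bases that both windows of a pair hold, as complements of each other. The Col4a1 window is chr16:84885347-84885646 on the plus strand and the Col4a2 window chr16:84885471-84885770 on the minus strand. The Col4a3 window is chr9:91323740-91324039 on the plus strand and the Col4a4 window chr9:91323528-91323827 on the minus strand.
Col4a1: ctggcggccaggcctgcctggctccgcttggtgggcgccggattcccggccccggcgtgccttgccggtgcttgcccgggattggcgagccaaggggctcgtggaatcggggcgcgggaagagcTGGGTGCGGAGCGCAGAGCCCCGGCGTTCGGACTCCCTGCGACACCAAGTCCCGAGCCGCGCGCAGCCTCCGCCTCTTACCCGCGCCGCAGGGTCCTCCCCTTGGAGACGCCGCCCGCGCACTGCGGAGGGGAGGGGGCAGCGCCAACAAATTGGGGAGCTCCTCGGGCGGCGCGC
Col4a2: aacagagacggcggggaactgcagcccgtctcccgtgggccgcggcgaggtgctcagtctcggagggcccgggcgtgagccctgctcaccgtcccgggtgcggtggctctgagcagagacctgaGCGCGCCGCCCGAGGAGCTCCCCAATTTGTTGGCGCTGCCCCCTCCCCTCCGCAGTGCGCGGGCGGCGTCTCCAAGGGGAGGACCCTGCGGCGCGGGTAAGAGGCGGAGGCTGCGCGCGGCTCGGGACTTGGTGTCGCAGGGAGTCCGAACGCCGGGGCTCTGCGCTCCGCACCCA
Col4a3: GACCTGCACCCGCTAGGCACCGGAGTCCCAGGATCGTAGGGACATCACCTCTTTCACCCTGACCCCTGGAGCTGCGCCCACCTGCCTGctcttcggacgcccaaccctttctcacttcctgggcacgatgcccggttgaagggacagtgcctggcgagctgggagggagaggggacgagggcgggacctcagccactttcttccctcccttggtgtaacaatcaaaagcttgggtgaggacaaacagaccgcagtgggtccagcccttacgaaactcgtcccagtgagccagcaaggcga
Col4a4: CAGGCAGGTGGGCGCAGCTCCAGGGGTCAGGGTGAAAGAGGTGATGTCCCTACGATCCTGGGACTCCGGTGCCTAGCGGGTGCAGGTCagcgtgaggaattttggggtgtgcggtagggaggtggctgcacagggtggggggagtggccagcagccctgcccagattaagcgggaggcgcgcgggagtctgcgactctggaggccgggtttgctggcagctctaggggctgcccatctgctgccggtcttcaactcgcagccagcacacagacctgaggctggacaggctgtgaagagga

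The starts of Col4a1 and Col4a2 lie 77 bases apart and their windows share 176 bases. For Col4a3 and Col4a4 the distance is 413 bases and 88 bases are shared. Col4a5 and Col4a6, on chromosome X, start 1415 bases apart and their windows do not overlap. GC content is 75% in the Col4a1 window and 73.7% in that of Col4a2, against 62% and 65.3% in those of Col4a3 and Col4a4 and a median of 51.7% over 33469 windows. Short motifs were searched on both strands in the 9 windows that matched a chain gene (Lamb2 is named only). The letters GGGCGG, the core that Sp1-type factors bind, occur in 8 of the 9, the exception being Col4a4, and in 33.1% of all windows. CCAAT occurs in 2 of the 9, Col4a1 and Col4a2, and in 37.5% of all windows. In both of these windows 1 CCAAT and 2 GGGCGG lie in the shared bases, so they are the same sites counted in each. TATAAA (14.2% of all windows) and TAATTA (5.36%), a core read by homeodomain factors, occur in 0 of the 9. These are matches of letters in the windows and do not show binding.

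Reads per library were recovered from the deposited log2 values and came to 13566962, 16207027, 15348629 and 15244063 in replicates 1 to 4. Levels are given in CPM, that is reads scaled so that every library has an equal total, in which a longer gene collects more reads, so a higher CPM of one gene than of another does not show more transcripts. Mitochondrial coding genes took between 7.46% (replicate 1) and 12.5% (replicate 2) of reads. Over all genes, the SD of log2 CPM between libraries had a median of 0.18 and quartiles of 0.11 and 0.29. Among the chain genes, 4 exceeded the upper quartile (Col4a3, Col4a4, Col4a5 and Col4a6), 2 were under the lower one (Col4a1 and Lamb2) and 4 lay between, with a median SD of 0.20.

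The widest differences between libraries were in the podocyte collagen chains. Col4a3 (ENSRNOG00000015365), the α3 chain that carries the Goodpasture epitope, was at 1011, 317, 472 and 772 CPM in replicates 1 to 4, from 13720, 5139, 7252 and 11772 reads. Replicates 1 and 4 were high and replicates 2 and 3 low. The mean was 643 ± 310 CPM (SD, n = 4), and replicate 1 was 3.19-fold above replicate 2 (95% counting interval 3.09 to 3.29). On the log2 scale its SD was 0.74, and 192 of the 13261 genes had a larger one. The range of 1.67 log2 units became 1.10 without replicate 2.

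Col4a4 (ENSRNOG00000014851), the α4 chain, had the same order of libraries, at 1984, 1012, 1200 and 1669 CPM and 16409 to 26916 reads. Its mean was 1466 ± 442 CPM (SD, n = 4), and replicate 1 stood 1.96-fold above replicate 2 (1.92 to 2.00). Col4a5 (ENSRNOG00000018951), the X-linked α5 chain without which neither α3 nor α4 enters the membrane, was at 391, 187, 230 and 397 CPM, from 3035 to 6052 reads. Its mean was 301 ± 108 CPM (SD, n = 4). Replicates 1 and 4 were again the high ones: replicate 4 was 2.12-fold above replicate 2 (2.03 to 2.22) with the deposited totals, while replicate 1 was the highest under trimmed-mean and median-of-ratios scaling. For all 3 chains replicate 2 was the lowest library under each of the 4 scalings, and replicate 3 came next with the deposited totals.

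Col4a6 (ENSRNOG00000056772), the α6 chain that pairs with α5 in Bowman's capsule and some tubular membranes, had the fewest reads of the chain genes, with 164, 159, 136 and 213. These correspond to 12.1, 9.84, 8.89 and 14.0 CPM, a mean of 11.2 ± 2.30 CPM (SD, n = 4). Replicate 4 exceeded replicate 3 by 1.58-fold, with a counting interval of 1.27 to 1.97. Its order of libraries differed from that of Col4a3 to Col4a5 in that replicate 3, not replicate 2, was lowest.

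Col4a1 and Col4a2 had smaller spreads, with SDs of 0.11 and 0.18 on the log2 scale. Col4a1 (ENSRNOG00000016281), the α1 chain, was at 2536, 2255, 2421 and 2694 CPM from 34406 to 41069 reads, with a mean of 2477 ± 185 CPM (SD, n = 4). The highest library, replicate 4, was 1.19-fold above replicate 2 (1.18 to 1.21). Its log2 range of 0.26 became 0.15 without replicate 2 and 0.17 without replicate 4.

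Col4a2 (ENSRNOG00000023972), the α2 chain, was at 1520, 1181, 1441 and 1547 CPM from 19148 to 23582 reads, with a mean of 1422 ± 167 CPM (SD, n = 4). Replicate 2 was low and the other 3 were close together, so that the log2 range of 0.39 became 0.10 without replicate 2. Replicate 4 was the highest with the deposited totals, 1.31-fold above replicate 2 (1.29 to 1.33), and replicate 1 under trimmed-mean and median-of-ratios scaling.

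**Figure D1:**
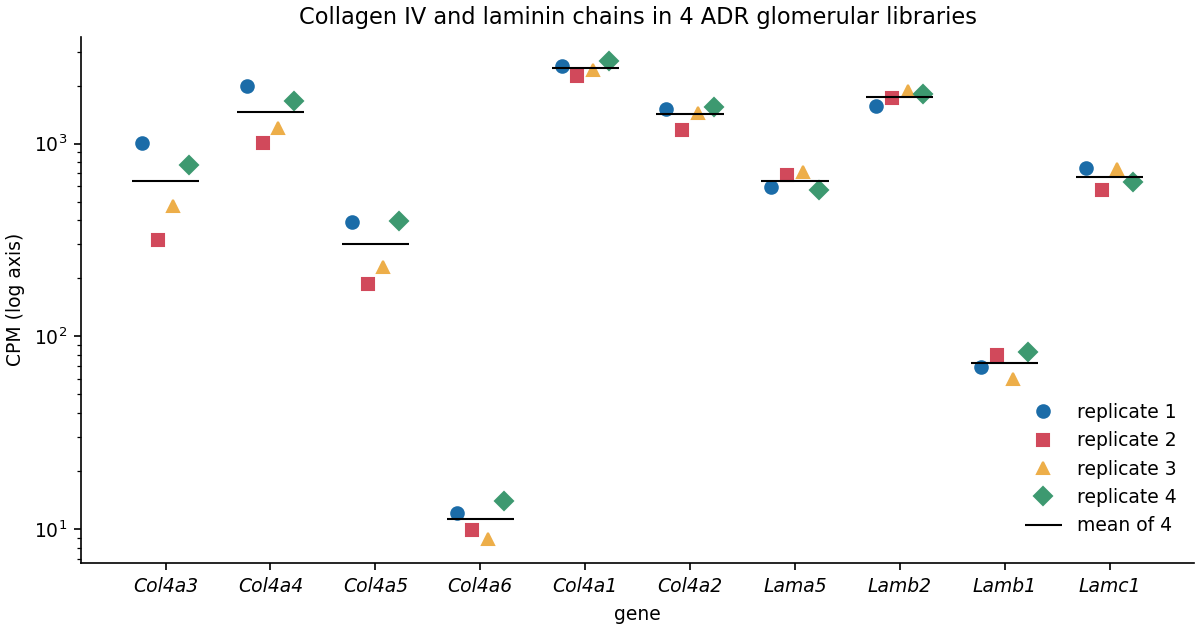
CPM (log axis) of each collagen IV and laminin chain gene, with 1 point per library and a line at the mean of the 4. The points of Col4a3, Col4a4 and Col4a5 are spread with replicate 2 lowest, from 317 to 1011 CPM for Col4a3, while those of Col4a1 and Lamb2 lie close together.

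The laminin chains had SDs of 0.11 to 0.21 on the log2 scale, and none had the order of libraries of Col4a3 and Col4a4. Lama5 (ENSRNOG00000053691), the α chain of the mature membrane, was at 592, 684, 715 and 577 CPM, a mean of 642 ± 67.8 CPM (SD, n = 4). Here replicates 2 and 3 were the high libraries and replicates 1 and 4 the low ones. Replicate 3 was 1.24-fold above replicate 4 (1.21 to 1.28), from 10971 and 8793 reads.

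Lamb2 (ENSRNOG00000047768), the β2 chain, was at 1567, 1721, 1868 and 1818 CPM, a mean of 1744 ± 132 CPM (SD, n = 4). Replicate 1 was low and the rest close: the log2 range was 0.25 over the 4 libraries and 0.12 without replicate 1. Replicate 3 was 1.19-fold above replicate 1 (1.17 to 1.21), from 28675 and 21265 reads.

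Lamb1 (ENSRNOG00000005678), the β1 chain of the immature membrane and the mesangium, was at 69.5, 79.7, 60.2 and 82.9 CPM, from 923 to 1292 reads. The mean was 73.1 ± 10.3 CPM (SD, n = 4). Replicate 3 was low, 1.38-fold under replicate 4 (1.265 to 1.501), although replicate 2 was the highest when totals left out mitochondrial genes. Without replicate 3 the log2 range went from 0.46 to 0.25.

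Lamc1 (ENSRNOG00000002680), the γ1 chain that most laminins of the kidney share, was at 751, 572, 742 and 633 CPM, a mean of 674 ± 86.9 CPM (SD, n = 4). Replicates 1 and 3 were high and 1.31-fold separated the extremes, replicates 1 and 2 (1.28 to 1.35), with replicate 3 the highest when totals left out mitochondrial genes. The log2 range of 0.39 became 0.25 without replicate 2.

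Against counting error alone, libraries differed for 10 of 10 chain genes (chi-square test on reads, Benjamini-Hochberg adjusted p under 0.05), as they did for 69.5% of all genes. The largest adjusted p among the chains was 0.000161, for Col4a6, whose counting error was 7.7% of its level against a coefficient of variation of 20.5%. Deep genes pass this test more readily: with a mean of at least 1000 reads, 9 of 9 chain genes passed and 92.3% of all such genes did. The share of chain genes that passed is thus near that of genes of like depth.

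Whether a chain varied more than other genes of its abundance was tested with limma's abundance trend. No chain gene passed, with 0 of 10 at an adjusted p under 0.05 and 0% of all genes, the smallest adjusted p over all genes being 0.912. The trend and its spread were fitted to these same genes, so the share of all genes that pass was largely set by the fit. Failing this test therefore does not show that a chain varied no more than like genes. At an unadjusted p under 0.05 in limma's test, 2 of 10 passed, Col4a3 and Col4a5, against 5.47% of all genes, and these 2 also passed without adjustment under each alternative setting. Their adjusted p from limma was 0.912, and 0.912 to 0.971 over the alternatives. For Col4a4, which did not pass without adjustment either, limma gave an adjusted p of 0.956.

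**Figure D2:**
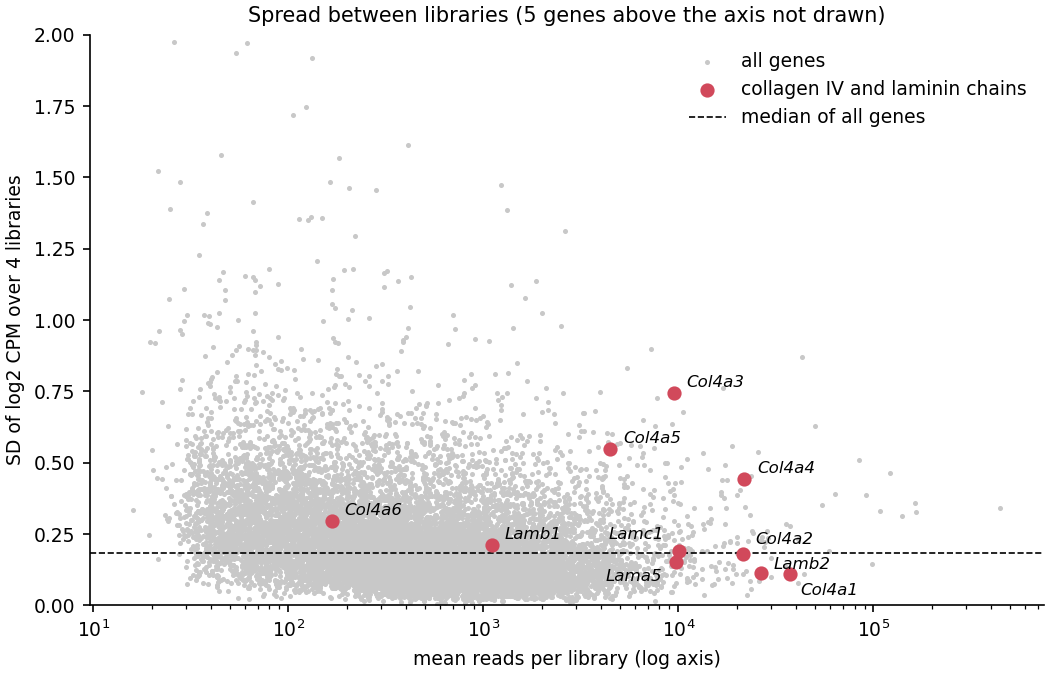
SD of log2 CPM over the 4 libraries against mean reads (log axis) for all genes (grey) and the 10 chain genes (red), with the median of all genes as a dashed line. Col4a3, at an SD of 0.74, stands highest of the chains, followed by Col4a5 and Col4a4, and Col4a1 and Lamb2, both at 0.11, lie under the median of 0.18.

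Read shares within a library do not depend on scaling between libraries. They depend on gene length, so only their movement between libraries is read. Intervals are exact Clopper-Pearson at 95% and, because reads after PCR are not independent molecules, cover counting error only.

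Of the reads of Col4a3 and Col4a4 together, Col4a3 took 33.8% in replicate 1 (33.3 to 34.2), 23.8% in replicate 2 (23.3 to 24.4), 28.2% in replicate 3 (27.7 to 28.8) and 31.6% in replicate 4 (31.2 to 32.1). No pair of intervals overlaps, and the mean was 29.4% ± 4.33 (SD, n = 4). Though they share a start region and assemble in 1 trimer, Col4a3 thus varied more between libraries than Col4a4, and the order of the shares was the order of both chains' levels. Against Col4a5, a share added after the data were seen, Col4a3 took 72.1%, 62.9%, 67.3% and 66.0% in replicates 1 to 4.

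The other head-to-head pair moved less. Col4a1 took 62.5% (62.1 to 62.9), 65.6% (65.2 to 66.0), 62.7% (62.3 to 63.1) and 63.5% (63.2 to 63.9) of the reads of Col4a1 and Col4a2 in replicates 1 to 4, a mean of 63.6% ± 1.43 (SD, n = 4). Replicate 2 stood apart from the other 3, with Col4a2 at -0.26 and Col4a1 at -0.13 log2 units from their means. The interval of replicate 4 also lies above those of replicates 1 and 3.

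Col4a5 made up 97.0% (96.5 to 97.4), 95.02% (94.2 to 95.8), 96.3% (95.6 to 96.9) and 96.6% (96.1 to 97.0) of the reads of the Col4a5 and Col4a6 pair in replicates 1 to 4. Only the interval of replicate 2 among these lies apart from those of replicates 1 and 4. Among the β chains, Lamb1 took 4.24% (3.98 to 4.52), 4.43% (4.19 to 4.67), 3.12% (2.92 to 3.32) and 4.36% (4.13 to 4.60) of the reads of Lamb1 and Lamb2. Replicate 3 was the low one and the intervals of the other 3 overlap.

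**Figure D3:**
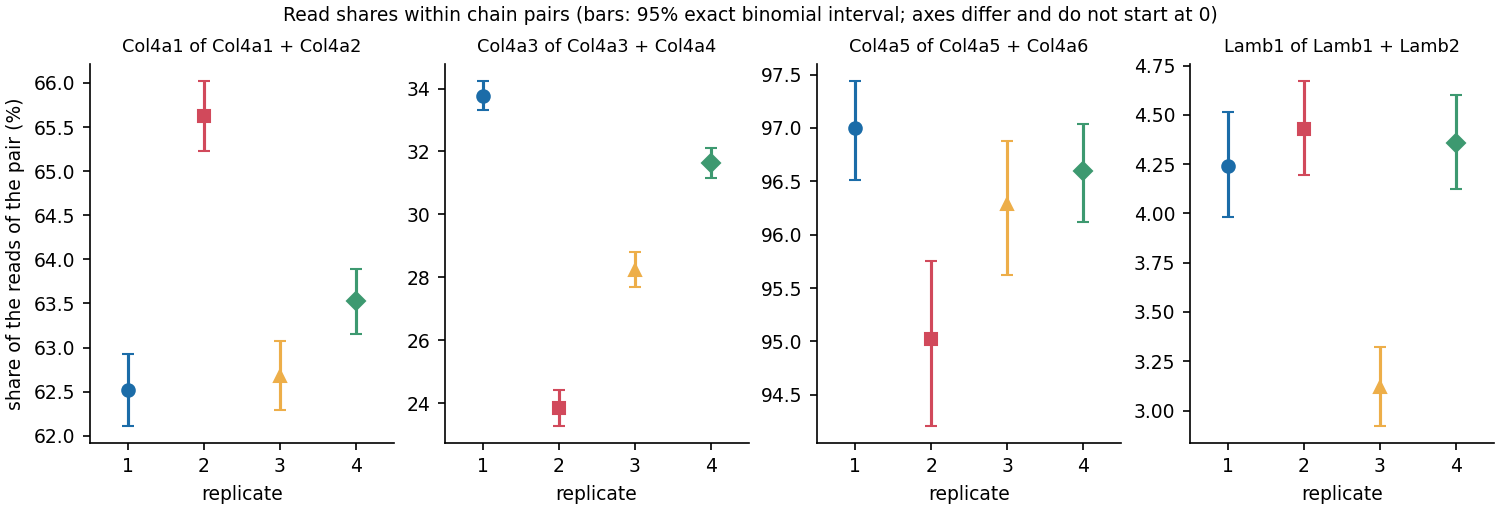
Share of reads (%) of the first chain within 4 pairs of chains, by library, with 95% exact binomial intervals; the 4 vertical axes differ and do not start at 0. Col4a3 runs from 23.8% of its pair in replicate 2 to 33.8% in replicate 1, and Lamb1 is low in replicate 3 at 3.12%.

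The 5 podocyte chains and the 3 endothelial and mesangial chains were then set against each other within each library, as the difference between the set means of log2 CPM. The difference was 0.54, -0.02, 0.25 and 0.33 in replicates 1 to 4, a mean of 0.28 ± 0.23 (SD, n = 4). Its sign changed with the chains included: with collagen chains only it was -1.09, -2.06, -1.88 and -1.35, and with laminin chains only, added after the data were seen, 3.79, 3.77, 4.26 and 3.63. Reads also depend on gene length, which was not used here, so only the movement is read, which in the collagens was 0.97 between replicates 1 and 2. The podocyte collagens spanned 1.24 log2 units and the α1 and α2 chains 0.32. Put as reads, the 3 podocyte collagens took 45.5%, 30.6%, 33.0% and 40.1% of the reads of the 5 collagen chains in replicates 1 to 4, a mean of 37.3% ± 6.78 (SD, n = 4), a share also added after the data were seen. The laminins of the podocyte set did not share this movement, since Lama5 was lowest in replicate 4 and Lamb2 in replicate 1.

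Markers of glomerular cell types moved between the same libraries. Podocyte markers (14 of 14 listed) summed to 12564, 6926, 9191 and 11172 CPM in replicates 1 to 4. Each of the 14 was highest in replicate 1 and lowest in replicate 2, under all 4 scalings. Of all genes, 24.1% to 31.9% were highest in replicate 1 and 22.9% to 31.5% lowest in replicate 2 under these scalings. Among the podocyte markers nephrin (Nphs1), of the slit diaphragm, was at 1683, 904, 1370 and 1584 CPM. Transcription factors of podocytes had the same order: Lmx1b was at 93.0, 32.9, 50.7 and 71.8 CPM and Wt1 at 247, 112, 175 and 198 CPM. In bulk samples such as these, fewer podocytes and less RNA per podocyte cannot be told apart. Endothelial markers (9 of 10 listed, with Pecam1 not analysed here) summed to 6836 to 8998 CPM, highest in replicate 3, and mesangial markers (8 of 8) to 2095 to 2597 CPM, highest in replicate 4. Defining markers of endothelium and mesangium were well above 0, with Kdr at 1782 ± 307 CPM, Pdgfrb at 445 ± 94.97 CPM and Itga8 at 326 ± 113 CPM (SD, n = 4).

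The mean podocyte marker stood at 0.51, -0.65, -0.11 and 0.25 log2 units around its own mean in replicates 1 to 4. Col4a4 followed it to within 0.16 in every library (differences of -0.02, 0.16, -0.13 and -0.02). Col4a5 differed from it by -0.06, 0.04, -0.20 and 0.22, and Col4a3 by 0.28, -0.24, -0.20 and 0.15. The range of these differences was 0.52 for Col4a3, 0.29 for Col4a4 and 0.42 for Col4a5. Single podocyte markers had ranges of 0.60 to 2.20 log2 units, and the range of Col4a3, 1.67, lies within them. These differences were computed after the values were seen and carry no test.

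For Lama5 the range of the difference was 1.36 log2 units from the podocyte markers, 0.15 from the endothelial markers and 0.56 from the mesangial markers. For Lamb2 the ranges were 1.29 and 0.22, with 0.23 from the mesangial markers. A gene that varies as little as Lamb2 (range 0.25) lies far from the podocyte markers, whose mean has a range of 1.15, whatever its order of libraries. From the mesangial markers the range of the difference was 0.19 for Col4a1 and 0.31 for Col4a2, and from the endothelial markers 0.44 and 0.62, wider than the genes' own ranges of 0.26 and 0.39. For Lamb1 the ranges were 0.58 and 0.72, both wider than its own 0.46. The mesangial mean joins markers that differ. With the deposited totals 5 of 8 were lowest in replicate 2, against 31.5% of all genes. In replicate 2 Itga8 was at -0.77 and Pdgfrb at -0.50 log2 units from their means. Des was at 0.29 there and Pdgfra and Acta2, like Des chosen after their values were seen, at 0.39. Other markers also differed between libraries. Proximal tubule markers (8 of 8) summed to 5843, 4173, 2768 and 4631 CPM, with Slc34a1 at 1119 to 1818 CPM, so tubular transcripts were present in every library of these sieved glomeruli. Distal markers (6 of 6) summed to 480 to 634 CPM, with Umod at 236 to 429 CPM, while their mean centred log2 value had a range of 0.06. The sums were, for parietal markers (6 of 6), 449 to 617 CPM and, for red cell markers (2 of 2), 714 to 1325 CPM. Leukocyte markers (5 of 5) summed to 670 to 879 CPM, highest in replicate 2, while their mean centred log2 value was lowest in replicate 1 (-0.36) and highest in replicate 3 (0.33). The part of these cell types in the spread of the chains was not tested.

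**Figure D4:**
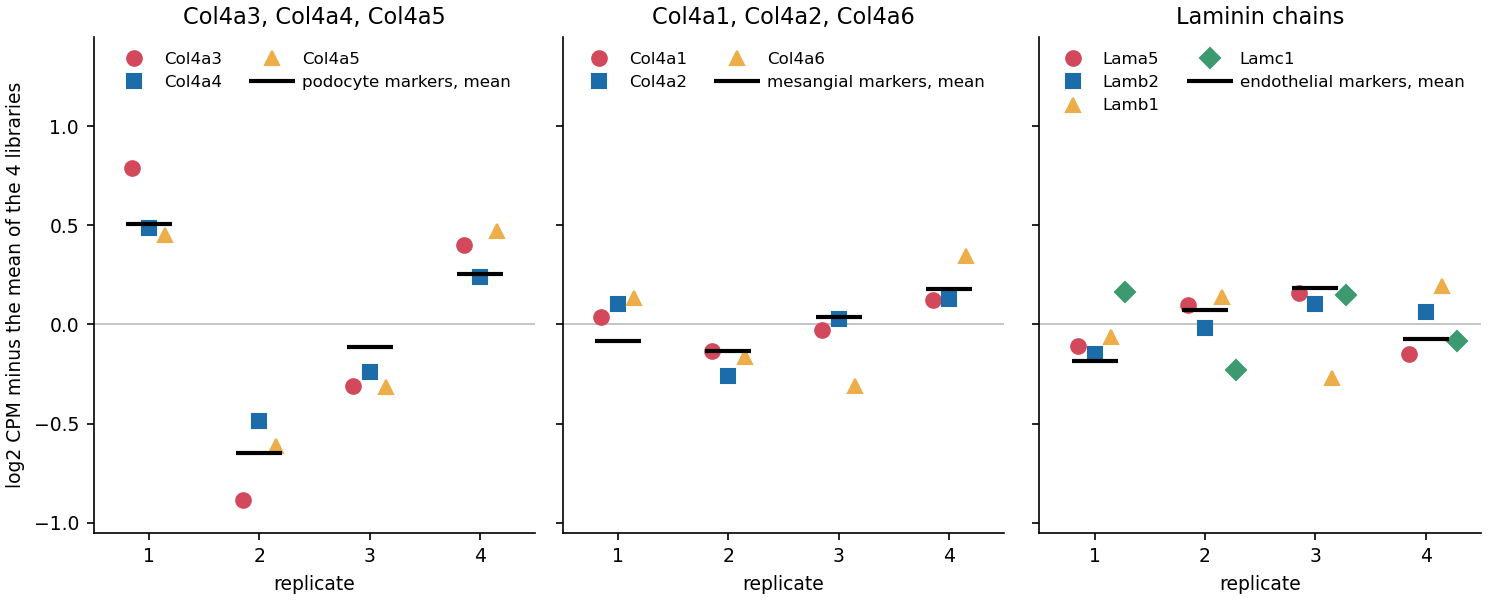
log2 CPM of each chain gene minus its mean over the 4 libraries, by replicate. Black dashes show the mean of a single marker list per panel on the same scale. The list is podocyte for Col4a3 to Col4a5, mesangial for Col4a1, Col4a2 and Col4a6, and endothelial for the laminins. The list drawn does not mean that every gene of the panel follows it. Col4a3, Col4a4 and Col4a5 lie low in replicate 2, as the podocyte markers do at -0.65, whereas the laminin chains stay between -0.27 and 0.19 in all libraries.

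The lowest library was replicate 2 for 6 of 10 chain genes (Col4a1 to Col4a5 and Lamc1) and for 31.5% of all genes with the deposited totals. The 6 were the same under the other scalings, which gave 22.9% to 27.6% of all genes. Replicate 2 was also the library with the largest share of mitochondrial reads, and the part of that share in these values was not tested. With mitochondrial genes left out of the totals, which raises the median of all genes by 0.19 log2 units in replicate 2 and by 0.11 to 0.14 in the others, the range of Col4a3 was 1.59 and that of Col4a1 0.18.

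Other genes of the basement membrane were described from a list by role, of which 40 of 49 are listed in the data. Libraries differed beyond counting error for 39 of the 40, Frem1 being the exception (adjusted p = 0.436, chi-square test on reads), against 69.5% of all genes and 92.3% of genes with a mean of at least 1000 reads; the counts by role that follow are read against the same shares. By limma 0 passed at an adjusted p under 0.05 and 5 at an unadjusted p under 0.05 (Npnt, Frem2, Smoc2, Mmp2 and Mmp9, of which Frem2 and Mmp2 are named after their values were seen), against 0% and 5.47% of all genes. Their median SD was 0.23 on the log2 scale, against 0.18 for all genes, and replicate 2 was lowest for 22 of 40 (31.5% of all genes), or for 19 with totals that leave out mitochondrial genes (22.9% of all genes).

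Among matrix proteins (15 of 22 listed), 14 differed beyond counting error. In this and the other roles, the genes with the most and the fewest reads are named, which is no order of transcript levels since reads depend on length. Sparc, a collagen-binding matricellular protein, was at 6545 ± 647 CPM, and Frem1 at 4.37 ± 0.53 CPM (SD, n = 4). Npnt, or nephronectin, a ligand of integrin α8β1 made by podocytes, was at 588, 169, 250 and 478 CPM, which is the order of Col4a3 with an SD of 0.83. Frem2, of the Fraser complex at epithelial basement membranes, was at 255, 78.6, 148 and 209 CPM. Smoc2, a calcium-binding matrix protein, was lowest in replicate 1, with 2.76, 6.94, 9.74 and 8.69 CPM. Agrin (Agrn), the heparan sulfate proteoglycan of the glomerular membrane, was the steadiest of the list at 534, 510, 568 and 549 CPM, an SD of 0.07. Laminin chains outside the main trimer, chosen after their values were seen, were Lama4 of endothelium at 254, 221, 355 and 331 CPM and Lama1 at 14.4 ± 2.74 CPM (SD, n = 4).

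Genes for chain assembly and cross-linking (11 of 12 listed) had a median SD of 0.15, and 11 of 11 were beyond counting error. The difference between roles was not tested, and 2 of the 11 exceeded the upper quartile of all genes, Lox (SD 0.42) and Plod2 (SD 0.39), the latter chosen after its values were seen and at 78.3, 41.7, 51.4 and 64.3 CPM. Serpinh1, the collagen chaperone HSP47, was at 749 ± 45.2 CPM and Lox, a lysyl oxidase, at 6.53 ± 1.64 CPM (SD, n = 4). P4hb, a subunit of prolyl hydroxylase, was at 490, 470, 466 and 528 CPM, and Plod3, a lysyl hydroxylase that also glycosylates collagen IV, at 98.1, 102, 110 and 110 CPM. These were, with Agrn, the 3 smallest spreads of the list, and P4hb was lowest in replicate 3 and Plod3 in replicate 1.

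Among receptors (9 of 10 listed; 9 beyond counting error), integrin β1 (Itgb1) was at 1590 ± 279 CPM and integrin β4 (Itgb4) at 8.86 ± 2.19 CPM (SD, n = 4). Of the 9 receptors, 6 were lowest in replicate 2 and 6 highest in replicate 1 with the deposited totals, against 31.5% and 27.7% of all genes, whereas Itgb4 was highest in replicate 2 (11.9 CPM) and lowest in replicate 1 (6.82 CPM). Integrin α3 (Itga3), which joins β1 as the main laminin receptor of podocytes, was at 1254, 751, 955 and 990 CPM, and dystroglycan (Dag1) at 730, 375, 491 and 691 CPM. Both were named after their values were seen, and in both replicate 1 was high and replicate 2 low. Among turnover genes (5 of 5 listed; 5 beyond counting error), Timp3, an inhibitor bound to matrix, was at 349 ± 56.6 CPM and Mmp14, a membrane-bound protease, at 61.2 ± 8.47 CPM (SD, n = 4). Mmp9, a gelatinase that cleaves collagen IV, had the widest spread of the list, at 366, 40.9, 172 and 146 CPM and 8.94-fold between replicates 1 and 2. Mmp9 passed limma's test without adjustment, and its adjusted p was 0.912.

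**Figure D5:**
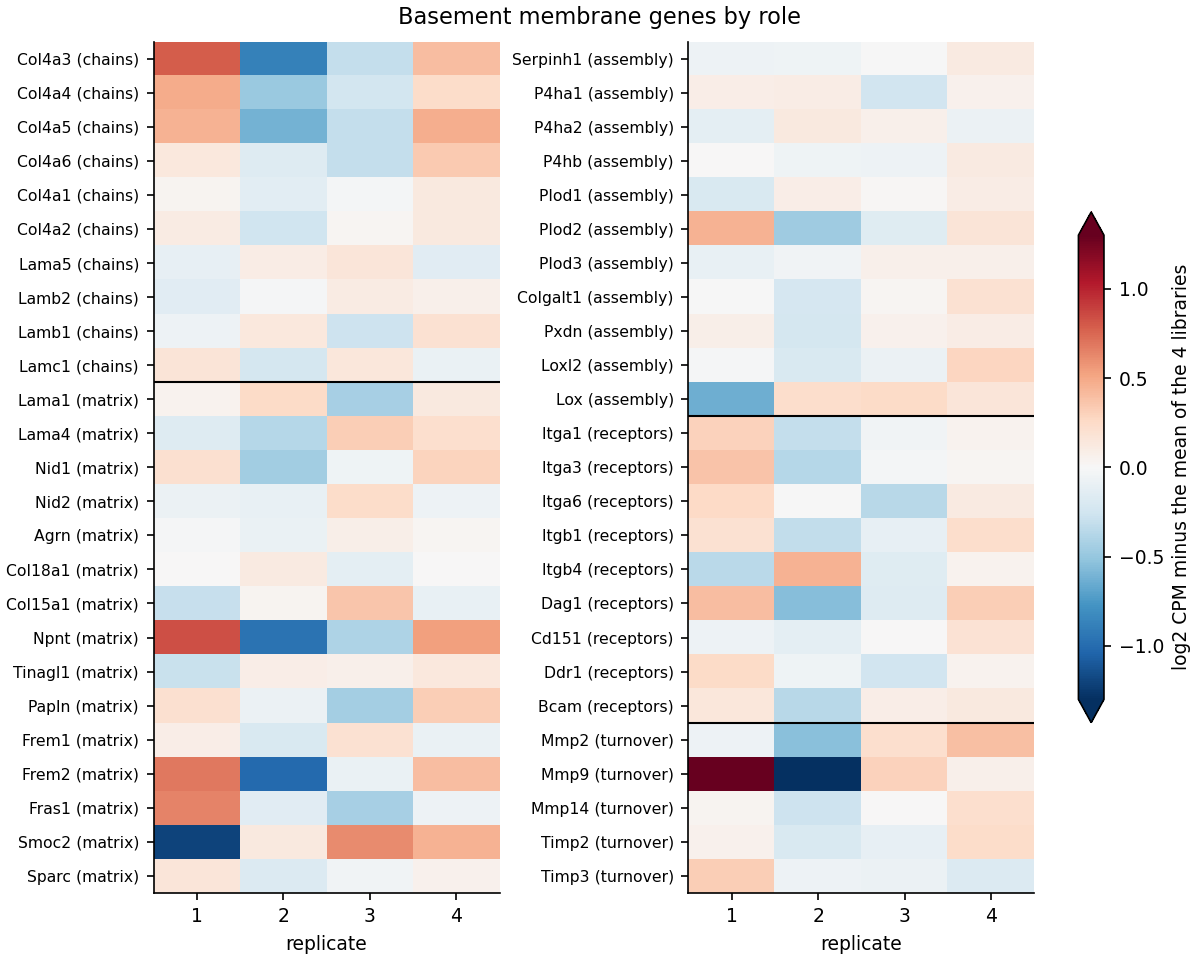
log2 CPM minus the mean of the 4 libraries (colour) for the 10 chain genes and the 40 other basement membrane genes, grouped by role, with values past the ends of the scale drawn in its end colours. Replicate 2 is blue for Col4a3, Col4a4, Col4a5, Npnt, Frem2, Dag1 and Mmp9, and most assembly genes are pale, with Plod2 and Lox as exceptions.

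Profiles over the 4 libraries were compared by the root mean square difference of centred log2 values, over 11272 genes with a mean of at least 100 reads. With only 4 points a close match is common for steady genes. For Col4a1, 2282 genes lay within 0.1 and the nearest were Dnajb4, Qsox2 and Plaa (0.0074 to 0.011). For Lamb2 there were 2552, led by Agpat4, Pms2 and Slf1 (0.0054 to 0.0095), and for Lama5 1371, led by Ccdc25, Zfp128 and AC094217.1 (0.016 to 0.018).

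Other chains had fewer near profiles, with 19 genes within 0.1 for Col4a5, 54 for Col4a6 and 143 for Lamb1. For Col4a4, 92 genes lay within 0.1, the nearest being Minar2 at 0.0053, followed by Smim1 and Unc119b at 0.026. For Col4a3 there were 13, led by Mgat4a at 0.032, Sema3e at 0.056 and AABR07059258.1 at 0.066. In the order from Col4a3, Col4a5 ranked at 82 and Col4a4 at 147 of 11272, while Lamb2 ranked at 7118 and Lama5 at 8962. From Col4a4, Col4a5 ranked at 229 and Col4a3 at 1462, behind Col4a6 at 1118 and Col4a2 at 1432. This measure counts the size of the differences between libraries as well as their order. Col4a3 had the order of libraries of Col4a4 but a range of 1.67 log2 units against 0.97. From Col4a5, Col4a4 ranked at 61 and Col4a3 at 276. Col4a1 and Col4a2 lay 0.077 apart, each the nearest chain gene to the other, at ranks of 1265 from Col4a1 and 659 from Col4a2. Ranks from steady genes, which have many profiles within 0.1, are not comparable with those from Col4a3.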

How the data were processed

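Poly(A) RNA of sieved glomeruli was sequenced from stranded libraries over 2 lanes, per the labels' protocols and the design text. The submitters' processing notes name HISAT2, featureCounts, Subread, limma and the Rnor_6.0 build; versions, annotation, strand use in counting and low-count filters are not given in the sources used here. The authors deposited log2 values, which are log2 CPM with 0.5 reads added: 100% of values gave a whole read within 0.01 (largest deviation 0.00071). Of 13265 rows, 4 with displaced cells were left out, 116 share a symbol (no chain gene), and 0 value columns belonged to no sample.

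Reads were tested against Poisson sampling (chi-square, 3 degrees of freedom, scipy 1.17.1), and the variance of log2(CPM + 1), with no covariate, against limma's abundance trend (limma 3.58.1 in R 4.3.3), both Benjamini-Hochberg adjusted over 13261 genes at 0.05. Both were checked on simulated data, in which limma's test missed most of the smaller changes made in single replicates. Scaling, filters, pseudocount, prior and each replicate were varied. The chain genes and all lists were chosen with earlier results of these data known. Beside the 10 chain genes, names follow a rule: the genes of highest and lowest CPM in each role, any gene that passed limma's test, the 3 largest and 3 smallest SDs, defining cell markers, podocyte regulators and, for 5 chains, the 3 nearest profiles. Genes named outside it, beside those set apart by the Dixon criterion, are marked in the text as chosen after their values were seen. Some genes that this rule selects are not reported.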

Additional observations from a re-analysis of the deposited data

Results flagged for a closer look

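In a group of 4 libraries, a value was set apart when its gap to the nearest other, divided by the whole range, exceeded Dixon's critical value at the 95% level. This held for 7 of 57 results examined. Chance sets apart about 1 in 20 groups, and 5.08% of all genes were set apart here. None of the 10 chain levels was among them.

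The share of Lamb1 in the reads of Lamb1 and Lamb2 was set apart in replicate 3, at a ratio of 0.858, where it was 3.12% against 4.24% to 4.43% in the others. Among the other basement membrane genes, Nid2 (0.902) and P4ha1 (0.886) were set apart in replicate 3, with Nid2 at 756 CPM against 598 to 612 and P4ha1 at 50.7 CPM against 62.8 to 64.6. Tinagl1 (0.845) and Lox (0.893) were low in replicate 1, with Tinagl1 at 279 CPM against 358 to 374 and Lox at 4.09 CPM against 7.05 to 7.52. Pxdn (0.865), at 229 CPM against 279 to 288, and Bcam (0.868), at 1026 CPM against 1392 to 1458, were low in replicate 2.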

How the results depend on the processing

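Of 300 alternatives over 38 results, 290 were labelled as unchanged, 8 as moved and 2 as reversed. A value was unchanged if it kept its sign and moved by less than the spread between libraries. A count was unchanged if its ratio to the main count stayed small. Part of the 290 could hardly move. Scaling cancels in the difference between chain sets, and trimmed-mean and median-of-ratios factors leave mean levels all but unchanged. For limma, the prior was refitted in each setting. The tally is thus no measure of how firm the results are. Totals without mitochondrial genes put mean log2 CPM at 11.41 for Col4a1 (11.27 with deposited totals) and at 10.90 for Lamb2 (10.76). This scaling raised the mean level of every chain alike, and Col4a1 and Lamb2 count as moved because their spreads were the smallest of the chains. The mean difference between podocyte and other chains, 0.28, reversed to -0.85 with set medians and to -1.60 with collagen chains only, and was 3.86 with laminin chains only. Its range, 0.56, was 0.97 with collagen chains only and 0.30 to 0.56 when each library was left out. The same omissions gave ranges of 0.10 to 0.39 for Col4a2 and 0.12 to 0.25 for Lamb2. Genes beyond counting error numbered 3243 with a mean of at least 1000 reads, added after the data were seen, against 9222, because fewer genes were tested. limma called 0 genes under each setting run, with 661 to 725 at an unadjusted p under 0.05. Levels per coding length were not run, since no lengths were used here, and counting error limits Col4a6 most. No paired analysis was possible because there is a single group.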
